A study of Mus musculus with 4 samples.

Results

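The alpha and beta globin genes were examined in RNA-seq libraries of tibial bone marrow from diet-induced obese mice that did or did not exercise. The members were chosen by name as the alpha globin genes Hba-a1, Hba-a2, Hba-x and Hbq1a and the beta globin genes Hbb-bs, Hbb-bt, Hbb-bh1 and Hbb-y, which makes 8 genes out of the 55401 in the deposited tables. All 8 were found. The marrow came from male wild-type C57/B6 mice, 8 weeks old when a high-fat diet (HFD) was begun. The obesity group (Ob, n = 2 libraries) had the diet alone. The group with obesity and exercise together (Ob + Exe, n = 2 libraries) had the same diet and 12 weeks of treadmill running at moderate intensity. Both groups had first been made obese on the diet, which went on through these 12 weeks and so lasted longer than the running. Obesity and the diet were thus shared by all 4 libraries, and no lean mice were among them. The authors spun the marrow out of the tibia, so that each library holds poly-A RNA from every kind of marrow cell, with no sorting of red cell precursors. In such bulk samples, fewer erythroid cells and less globin RNA per cell cannot be told apart.

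Hemoglobin carries oxygen in red blood cells and is built of paired alpha and beta globin chains, each holding a heme group. In the mouse, the alpha-like genes lie in one cluster on chromosome 11 and the beta-like genes in another on chromosome 7, and each cluster is ordered with the embryonic genes before the adult genes. Bone marrow is the main site of red cell production in the adult, and the erythroblasts there make the adult alpha chain from Hba-a1 and Hba-a2 and the adult beta chain from Hbb-bs and Hbb-bt. Hba-x (zeta), Hbb-y (epsilon y) and Hbb-bh1 are the genes of the primitive red cells of the embryo, and Hbq1a is a theta-type alpha-like gene.

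In the deposited tables (mouse genome GRCm38), the alpha-like genes lie on the plus strand of chromosome 11. Hba-x is at chr11:32276400-32278116, Hba-a1 at chr11:32283511-32284465, Hba-a2 at chr11:32296489-32297298 and Hbq1a at chr11:32300069-32300873. The beta-like genes lie on the minus strand of chromosome 7. Hbb-bt is at chr7:103812524-103813996, Hbb-bs at chr7:103826534-103828096, Hbb-bh1 at chr7:103841637-103843164 and Hbb-y at chr7:103851749-103853216. The main transcript of every member has 3 exons. The coding sequence has 429 bases with its stop codon in Hba-a1, Hba-a2 and Hba-x, 438 in Hbq1a and 444 in the 4 beta-like genes.

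The 2 adult genes of each kind are almost the same sequence, and this decides what reads can say about them. The coding sequences of Hba-a1 and Hba-a2 were 99.8% identical, with a single difference, C381T, when bases are counted from 1 at the A of the start codon and the Hba-a1 base is given first. Hbb-bs and Hbb-bt were also 99.8% identical, with the single difference C417T, the Hbb-bs base first. Both differences fall on the third base of a codon, codon 127 of the alpha chain and codon 139 of the beta chain, and leave the amino acid as it is. The 31 bases around each difference, with the base that differs in capitals, are the only coding stretches by which the copies can be recognised. They lie at chr11:32284328-32284358 and chr11:32297145-32297175 on the plus strand and at chr7:103826677-103826707 and chr7:103812668-103812698 on the minus strand.
Hba-a1: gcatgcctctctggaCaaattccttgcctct
Hba-a2: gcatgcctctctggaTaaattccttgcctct
Hbb-bs: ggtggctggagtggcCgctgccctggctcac
Hbb-bt: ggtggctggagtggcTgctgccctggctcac

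Of the 150-base stretches of the main Hba-a1 transcript (150 bases being the read length), 48.4% occur unchanged in that of Hba-a2, and 65.7% of those of Hba-a2 occur in Hba-a1. These shares were 58.7% of Hbb-bs stretches in Hbb-bt and 50.7% of Hbb-bt stretches in Hbb-bs. Hbq1a shared 16.04% of its stretches with Hbq1b, another theta gene whose coding sequence was 93.8% identical and which is not among the 8 members. No other pair of members shared any such stretch, and Hbb-y and Hbb-bh1 were only 74.3% and 74.6% identical to Hbb-bs in their coding sequence. These shares are for single reads, whereas the libraries were sequenced as pairs of reads. The share of pairs in which both reads fit either copy was not computed. How the authors' quantification divided reads that fit both copies is not given in the sources used here. Values of single copies are therefore uncertain, and values summed over a pair are given beside them.

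The bases before the start site also differ between the members. They are shown because genes of high and low level can be set side by side, the capitals marking the CCAAT box, the CACCC box and the TATAA box long known before globin genes, on either strand. The sequences come from the RefSeq promoter entries (GRCm38.p6), of which 7 of the 8 members had one. Only bases outside annotated exons are shown, from the 120 bases before the RefSeq start site, at chr11:32296372-32296488 on the plus strand for Hba-a2, chr7:103827929-103828011 and chr7:103813997-103814043 on the minus strand for Hbb-bs and Hbb-bt, and chr11:32299949-32300068 on the plus strand for Hbq1a. The last letters of the Hbb-bt stretch begin a CCAAT that runs into its exon. The CACCC of Hbb-bs and the TATAA of Hbb-bt lie in the parts left out, so their absence from these stretches is no difference between the genes.
Hba-a2: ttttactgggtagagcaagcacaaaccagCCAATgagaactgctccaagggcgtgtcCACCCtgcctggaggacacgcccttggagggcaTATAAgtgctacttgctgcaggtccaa
Hbb-bs: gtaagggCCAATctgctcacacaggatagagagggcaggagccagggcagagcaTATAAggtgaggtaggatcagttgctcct
Hbb-bt: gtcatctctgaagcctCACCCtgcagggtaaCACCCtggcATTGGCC
Hbq1a: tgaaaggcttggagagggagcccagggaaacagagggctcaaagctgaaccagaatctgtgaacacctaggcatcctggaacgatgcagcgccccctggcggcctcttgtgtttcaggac

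All 4 adult genes held the CCAAT box, the CACCC box and the TATAA box in these 120 bases. The TATAA began 27 bases before the start site in Hba-a1, 30 in Hba-a2, 29 in Hbb-bs and 28 in Hbb-bt. Counted over both strands and all 32851 promoter entries, CCAAT (read as ATTGG on the other strand) occurred in 21.3% of such windows. CACCC (read as GGGTG on the other strand) occurred in 31.7% and TATAA (read as TTATA there) in 11.8%. In Hbb-bt, a CCAAT and an ATTGG abut, and ATTGG and CACCC each occur 2 times. Hba-x held the CACCC box, the TATAA box and GATAA as well, the letters bound by Gata factors, which 10.5% of windows hold on one strand or the other (TTATC). Hbb-y held the CCAAT box and the CACCC box, and Hbq1a held none of these letters. Within the 300 bases of their entries, Hba-a1 and Hba-a2 shared an unbroken run of 297 bases, while the longest run shared by Hbb-bs and Hbb-bt was 14. The 2 alpha genes thus have the same upstream bases and the 2 beta genes do not, with 74.6% identity over the 120 bases before the start.

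The values below are FPKM, that is fragments relative to transcript length and library size, summed over the transcripts of a gene and scaled between libraries, and they are called scaled FPKM. The libraries rested on 53.0 M and 50.4 M read equivalents in Ob against 44.3 M and 46.7 M in Ob + Exe (M for 1000000), a read equivalent being coverage times transcript length divided by the read length. Of these, the 4 adult globin genes took 3.15 M and 3.04 M in Ob against 2.03 M and 2.84 M in Ob + Exe. Scaling factors lay between 0.949 and 1.03. In the labels, the tissue is bone marrow, while the cell line field reads mesenchymal stem cells and the cell type field reads fibroblast. Of the 6 erythroid markers used (Hemgn, Slc4a1, Epor, Klf1, Alas2 and Rhag), none was listed at 0 in any library, and their summed level was 1663 to 1753 scaled FPKM in Ob against 1412 to 1775 in Ob + Exe. The 10 markers of mesenchymal stem cells and fibroblasts summed to 124.9 to 174 scaled FPKM in Ob against 120 to 175 in Ob + Exe, and the 10 neutrophil markers to 27579 to 47896 in Ob against 35690 to 63263 in Ob + Exe. The erythroid and neutrophil markers of whole marrow thus stood far above the markers of the cells named in those 2 fields.

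**Figure D1:**
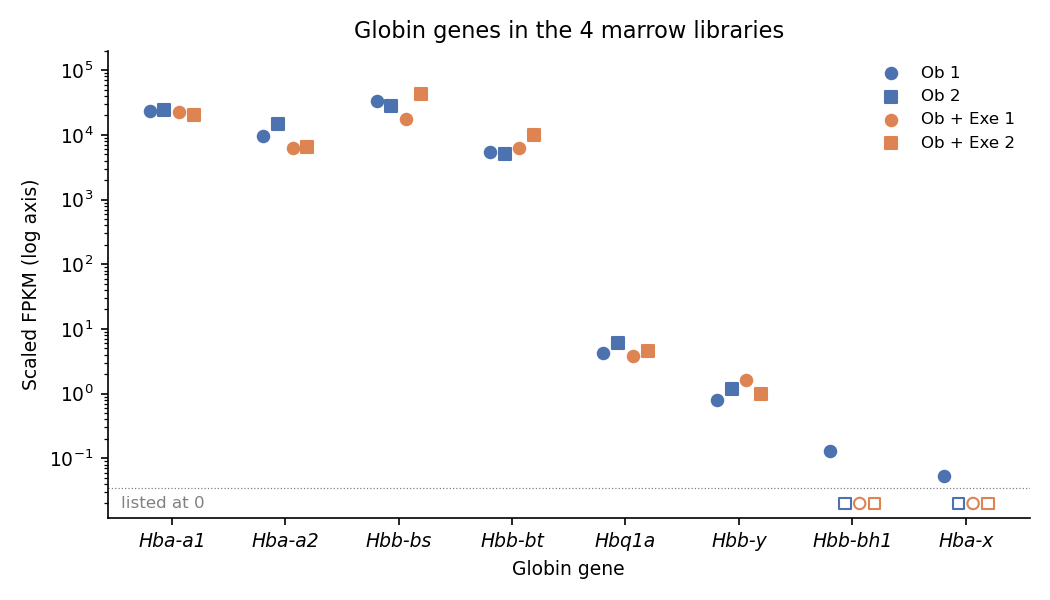
Scaled FPKM (log axis) of the 8 globin genes, with 1 point per library, circles for replicate 1 and squares for replicate 2 of each group, and open symbols for genes listed at 0. The 4 adult genes sit between 4989 and 43309 scaled FPKM, Hbq1a and Hbb-y between 0.807 and 6.08, and Hbb-bh1 and Hba-x are above 0 in the first Ob library only.

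The 4 adult genes were among the 7 most abundant genes of every library. Together with the other members they made up 15.6% and 16.4% of all FPKM in Ob against 12.2% and 16.04% in Ob + Exe, or 5.94% and 6.03% of the read equivalents in Ob against 4.59% and 6.09% in Ob + Exe. The first Ob + Exe library was thus the lowest on both scales and the second lay close to the Ob libraries. The difference in the share of FPKM was -0.19 ± 0.199 (log2, Ob + Exe minus Ob, SE, n = 2 and 2) and did not hold up against the spread between replicates (exact permutation test, two-sided, p = 0.667). With 2 libraries against 2, the smallest two-sided p this test allows is 0.3333.

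In mean scaled FPKM over the 4 libraries, the order of the levels was Hbb-bs, Hba-a1, Hba-a2, Hbb-bt, Hbq1a and Hbb-y. Hbb-bs and Hba-a1 were not apart, since Hbb-bs was the higher in 3 of 4 libraries and Hba-a1 in the first Ob + Exe library. Hba-a1 was above Hba-a2 in every library, 1.65-fold to 3.63-fold. Hba-a2 and Hbb-bt overlapped, with Hbb-bt the higher in the second Ob + Exe library. A wide gap followed, for Hbb-bt was 821-fold to 2144-fold above Hbq1a within a library. Hbq1a in turn was 2.37-fold to 5.21-fold above Hbb-y.

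To compare the groups, the 18596 genes whose mean FPKM reached 0.1 were tested with limma, and a gene was called at an unadjusted p under 0.05 together with a log2 fold change beyond 1. In this test 690 genes (3.71%) were called, and 933 had an unadjusted p under 0.05, while after Benjamini-Hochberg adjustment no gene stayed under 0.05 in limma. Of the 8 globin genes, 6 passed the filter on low values and none of these 6 was called or had an unadjusted p under 0.05 in limma. None was called by limma voom on read equivalents either, where 1 of the 6, Hba-a2, had an unadjusted p under 0.05. In 2 of the 6, Hba-a1 and Hba-a2, the groups did not overlap and Ob + Exe was the lower, as in 18.7% of all genes tested. In 1 of the 6, Hbb-bt, they did not overlap and Ob + Exe was the higher, as in 14.0% of all genes tested. In the other 3, Hbb-bs, Hbb-y and Hbq1a, the groups overlapped.

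Of the alpha genes, Hba-a1 had 23549.7 and 24142 scaled FPKM in Ob against 22784 and 19959 in Ob + Exe. Both Ob + Exe libraries were lower, but the first only slightly so. The means were 23846 ± 419 in Ob against 21372 ± 1998 in Ob + Exe (SD, n = 2 each). The log2 fold change was -0.16 with an SE of 0.537 (limma, adjusted p = 0.985). An SE from this limma fit is drawn towards the spread of other genes of like level. It is therefore not the spread between these mice alone. For Hba-a1 it was 0.267 with no intensity trend, 0.222 in limma voom and 3.19 with no filter on low values. Hba-a2 had 9571 and 14657 scaled FPKM in Ob against 6277 and 6426 in Ob + Exe. The Ob + Exe libraries were close to each other and below both Ob libraries, which themselves were 1.53-fold apart. Its means were 12114 ± 3596 and 6352 ± 105 scaled FPKM, and its log2 fold change of -0.90 with an SE of 0.448 was the greatest in size among the members tested, but missed the threshold (limma, unadjusted p = 0.0941, adjusted p = 0.960). The unadjusted p of Hba-a2 was 0.0107 in limma voom on read equivalents and 0.0257 in limma with a minimum mean FPKM of 1, with adjusted p far above the threshold and the fold change below the limit in both. Its log2 fold change was -0.60 without the second Ob library and -1.21 without the first.

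Of the beta genes, Hbb-bs had 32965 and 27674 scaled FPKM in Ob against 17631 and 43309 in Ob + Exe. The lowest and the highest value of this gene thus both came from exercised mice, 2.46-fold apart, and enclosed the Ob values. The means were 30319 ± 3741 in Ob against 30469.9 ± 18157 in Ob + Exe, and the log2 fold change was -0.13 with an SE of 0.693 (limma, adjusted p = 0.988), so that the means and the log2 values differed in sign. The log2 fold change became 0.52 without the first Ob + Exe library and -0.78 without the second, so that a single mouse sets its direction. Hbb-bt had 5449 and 4989 scaled FPKM in Ob against 6242 and 9876 in Ob + Exe. Both Ob + Exe libraries were higher, the second by far. The means were 5219 ± 325 and 8059 ± 2569.5 scaled FPKM, and the log2 fold change was 0.59 with an SE of 0.427 (limma, adjusted p = 0.960). Without the second Ob + Exe library it was 0.25.

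The low members were Hbq1a and the 3 embryonic genes. Hbq1a had 4.21 and 6.08 scaled FPKM in Ob against 3.83 and 4.61 in Ob + Exe, with between 135 and 244 read equivalents behind each value. The groups overlapped, and the log2 fold change was -0.26 with an SE of 0.325 (limma, adjusted p = 0.971). It was -0.012 without the second Ob library and -0.53 without the first. Hbb-y, the embryonic beta-like gene, had 0.807 and 1.17 scaled FPKM in Ob against 1.61 and 0.997 in Ob + Exe, from 34.8 to 59.6 read equivalents. The highest and a middle value came from Ob + Exe, so the groups overlapped here too, with a log2 fold change of 0.35 and an SE of 0.496 (limma, adjusted p = 0.975). It was 0.03 without the first Ob + Exe library and 0.67 without the second. Hbb-bh1 was listed at 0 except in the first Ob library, where it had 0.128 scaled FPKM or 5.36 read equivalents, and Hba-x likewise except for 0.0533 scaled FPKM or 2.91 read equivalents in the same library. A 0 allows, at 3 read equivalents, up to 0.0738 to 0.0889 scaled FPKM of Hbb-bh1 and up to 0.0564 to 0.0680 of Hba-x in the other 3 libraries, counting error only. The value of Hba-x is itself below this limit in its own library, which is 0.0550, and no difference between groups was detectable for either gene at this depth. The embryonic genes together came to 13.8 and 16.4 scaled FPKM per 1000000 scaled FPKM of adult globin in Ob against 30.4 and 12.5 in Ob + Exe. The first Ob + Exe library had the highest proportion and the second the lowest (exact permutation test, two-sided, p = 1).

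Since reads can pass between near-identical copies, the adult genes were also summed by chain. Hba-a1 and Hba-a2 together had 33120.5 and 38798.5 scaled FPKM in Ob against 29062 and 26385 in Ob + Exe. Adult alpha globin was lower in both Ob + Exe libraries, with means of 35959.5 ± 4015 and 27723 ± 1893 (SD, n = 2 each) and a log2 difference of -0.37 ± 0.134 (SE; two-sided exact permutation test, p = 0.3333, the lowest that can be reached). As 1 feature in the limma fit over all genes, the sum had an SE of 0.610 and an adjusted p of 0.976. That SE is again drawn towards other genes, while 0.134 comes from the sums of these libraries alone. Hbb-bs and Hbb-bt together had 38414 and 32663 scaled FPKM in Ob against 23873 and 53185 in Ob + Exe. The exercised mice again gave both the lowest and the highest value of adult beta globin, 2.23-fold apart, and the log2 difference was 0.0086 ± 0.590 (SE; exact permutation test, two-sided, p = 1). The interval of 1 SE on either side of this difference holds both a lower and a higher level.

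The sum of all 4 adult genes was 71535 and 71461.5 scaled FPKM in Ob against 52935 and 79569.6 in Ob + Exe. The Ob libraries were almost equal, while the Ob + Exe libraries lay below and above them, 1.503-fold apart. The log2 difference was -0.14 ± 0.294 (SE; exact permutation test, two-sided, p = 1), and it became 0.15 without the first Ob + Exe library. The ratio of alpha to beta FPKM, which no scaling between libraries can alter, was 0.862 and 1.19 in Ob against 1.22 and 0.496 in Ob + Exe. It was thus lowest in the second Ob + Exe library, where beta FPKM was about double alpha FPKM, and close to 1 in the others. The log2 difference of the ratio was -0.38 ± 0.688 (SE; exact permutation test, two-sided, p = 1), and it became 0.27 without the second Ob + Exe library.

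**Figure D2:**
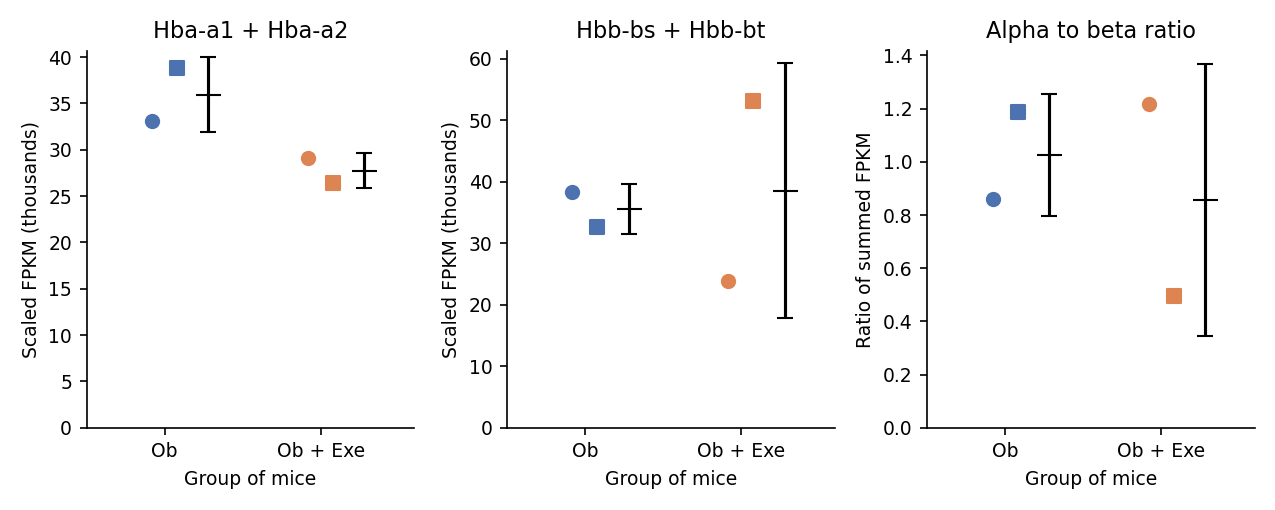
Summed scaled FPKM of the adult alpha genes (left) and adult beta genes (middle), and the ratio of alpha to beta FPKM (right), with 1 point per library and the mean ± SD of n = 2 per group. Alpha globin is lower in both Ob + Exe libraries, while the beta globin of the Ob + Exe libraries, 23873 and 53185, encloses that of the Ob libraries.

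The division of each pair between its copies was then compared. Hba-a1 held 71.1% and 62.2% of adult alpha FPKM in Ob against 78.4% and 75.6% in Ob + Exe, higher in both Ob + Exe libraries. Hbb-bs held 85.8% and 84.7% of adult beta FPKM in Ob against 73.9% and 81.4% in Ob + Exe, lower in both. Hbq1a held 7.28% and 8.73% of the FPKM of Hbq1a and Hbq1b in Ob against 13.5% and 9.67% in Ob + Exe, higher in both. Each of these 3 differences reached p = 0.3333 in the exact permutation test (two-sided), the smallest it allows. The groups thus did not overlap in any of the 3 shares. Such separation is common with 2 libraries per group. In level, 18.7% of all genes tested were lower and 14.0% higher in both Ob + Exe libraries. Whether the 3 shares reflect the genes, the division of shared reads or the spread between mice was not tested. In the deposited tables, the main Hba-a1 transcript is 699 bases long against 554 for Hba-a2, and it starts 161 bases before the RefSeq start site, against 3 bases for Hba-a2. The main Hbb-bt transcript is 703 bases long and starts 73 bases before its RefSeq start site, against 628 and 0 for Hbb-bs. These lengths enter the FPKM of each copy.

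**Figure D3:**
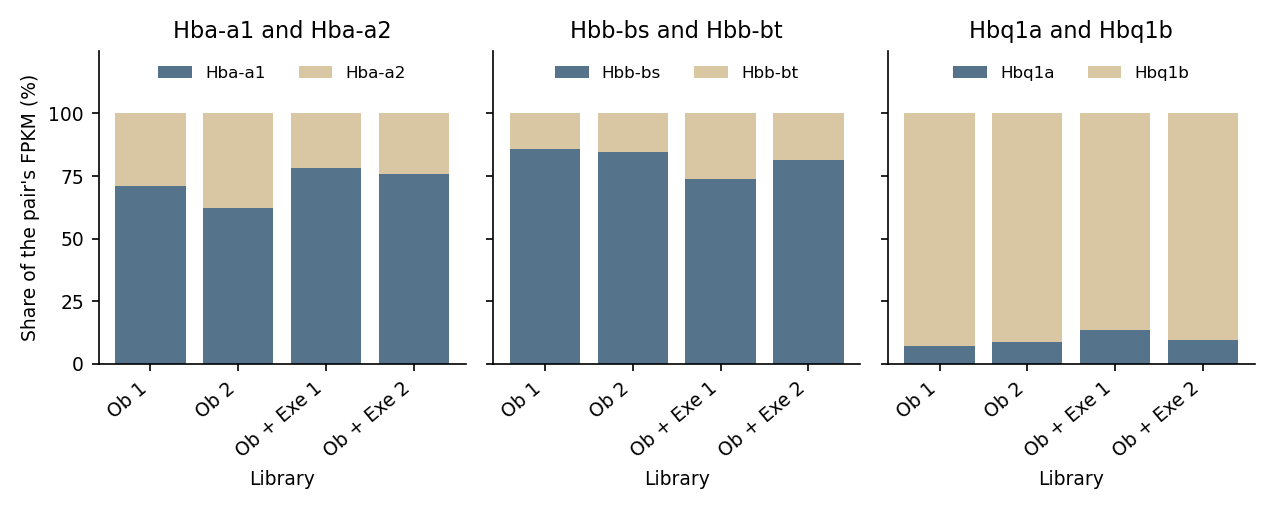
Share of each pair's summed FPKM (%) held by either copy, in bars for each of the 4 libraries. Hba-a1 is the greater part of adult alpha globin and Hbb-bs of adult beta globin in every library, and Hbq1a is at most 13.5% of the theta pair.

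Hbq1b, the other gene of the theta pair, had 53.6 and 63.5 scaled FPKM in Ob against 24.6 and 43.0 in Ob + Exe. It was lower in both Ob + Exe libraries, with a log2 fold change of -0.84 and an SE of 0.312 (limma, unadjusted p = 0.0373, adjusted p = 0.960), and it was not called. The log2 fold change was -1.25 without the second Ob + Exe library, where Hbq1b was called, and -0.44 without the first. Summed over Hbq1a and Hbq1b, the theta level was 57.8 and 69.6 scaled FPKM in Ob against 28.4 and 47.6 in Ob + Exe, with a log2 fold change of -0.79 and an SE of 0.2995 (limma, unadjusted p = 0.0413, adjusted p = 0.960). Per 1000000 scaled FPKM of adult globin, the theta pair stood at 808 and 974 in Ob against 536 and 599 in Ob + Exe, so it was also lower relative to the adult genes (exact permutation test, two-sided, p = 0.3333).

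Globin RNA comes from erythroid cells, so its level was set beside their markers. Adult globin per summed erythroid marker FPKM was 43.0 and 40.8 in Ob against 37.5 and 44.8 in Ob + Exe. This ratio spanned 1.196-fold over the 4 libraries, against 1.503-fold for adult globin itself, and the groups overlapped (log2 difference -0.03 ± 0.135, SE; exact permutation test, two-sided, p = 1). Of the 6 erythroid markers, 5 were higher in the second Ob + Exe library than in the first. The exception was Alas2, with 795 scaled FPKM in the first against 718 in the second. Alas2 had the highest level of the 6 in every library and so weighs most in their sum. The 2 exercised mice thus differed in 5 of the 6 erythroid markers in the same direction as in Hbb-bs. The neutrophil marker sum was also higher in the second, 63263 against 35690. The part of either in the globin values was not tested.

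Among 5815 other genes with a mean scaled FPKM of at least 10, those whose pattern over the 4 libraries was most like that of summed adult globin were Zbtb7a, Med19, Tfam, Zfand3 and Foxo4. Likeness was the Euclidean distance between log2 values centred on each gene's mean, which was from 0.0515 to 0.0613 for these 5 genes, against a median of 0.575 for all the candidates. Zbtb7a, a zinc finger repressor of embryonic and fetal globin genes that is also in the list of transcription factors below, had 14.5 and 14.2 scaled FPKM in Ob against 10.2 and 15.9 in Ob + Exe. With 4 points, many genes can come close to any pattern, and the ranking is a description only.

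**Figure D4:**
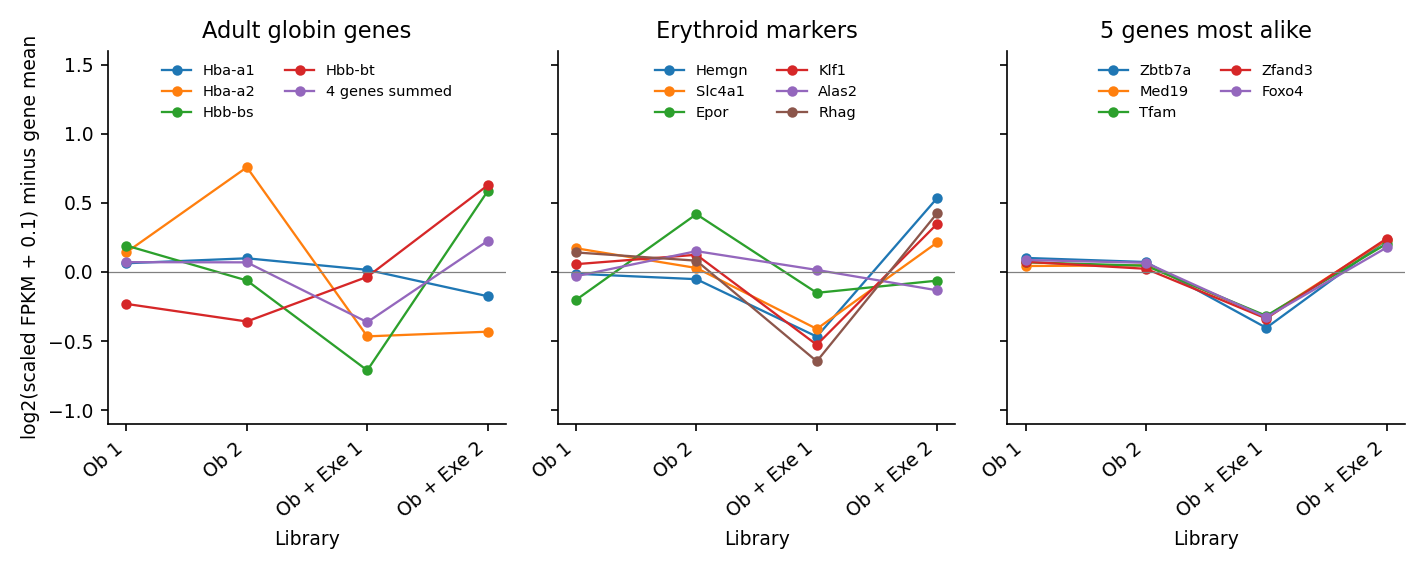
log2(scaled FPKM + 0.1) minus the gene's mean over the 4 libraries, for the 4 adult globin genes and their sum (left), 6 erythroid markers (middle) and the 5 genes most alike to the sum (right), with lines that only join the points of a gene. The sum is lowest in the first and highest in the second Ob + Exe library, Hbb-bs and most erythroid markers share this shape, and Hba-a1 and Hba-a2 do not.

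The other genes of globin production were read from the same limma fit in 6 lists. Of 18 transcription factors that act at globin genes, 13 were lower and 5 higher in Ob + Exe, and none was called. Their median log2 fold change was -0.14, against -0.02 over all genes tested, of which 9693 were lower and 8903 higher. Of the 5819 genes with a mean scaled FPKM of at least 10, 2509 were lower and 3310 higher (median 0.05). Lmo2, a bridging protein of the erythroid factor complex, had 152 and 153 scaled FPKM in Ob against 148 and 143 in Ob + Exe. Klf1, the activator of adult beta globin, had 109.7 and 115 in Ob against 73.2 and 134 in Ob + Exe, lowest in the first and highest in the second Ob + Exe library as was Hbb-bs. Nfe2, a factor of the beta globin locus control region, had 137 and 134 in Ob against 164 and 135 in Ob + Exe. Ldb1, the partner of Lmo2 in joining enhancers to globin genes, is named after its values were seen, as the single factor with an unadjusted p under 0.05. It had 47.3 and 54.6 scaled FPKM in Ob against 36.0 and 33.0 in Ob + Exe (log2 fold change -0.56, SE 0.201, limma unadjusted p = 0.0342, adjusted p = 0.960).

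Of 17 genes of hemoglobin assembly and heme supply found in the tables, 8 were lower and 9 higher in Ob + Exe, with a median log2 fold change of 0.01. Of the 17, 1 was called, beside 3.71% of all genes tested. This was Steap3, the ferrireductase that makes transferrin-bound iron ready for use in erythroid precursors. It had 19.0 and 15.8 scaled FPKM in Ob against 6.35 and 11.6 in Ob + Exe, lower in both Ob + Exe libraries. Its log2 fold change was -1.004 with an SE of 0.344 (limma, unadjusted p = 0.0283, adjusted p = 0.960), just past the limit, and the call was lost with a pseudocount of 1, without an intensity trend, in limma voom and without either Ob library or the first Ob + Exe library. Alas2, the enzyme of the first step of heme synthesis in red cells, was not called, with 770 and 874 scaled FPKM in Ob against 795 and 718 in Ob + Exe.

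Of 18 genes of the erythroid membrane and surface, 12 were lower and 6 higher in Ob + Exe, and none was called (median log2 fold change -0.09). Slc4a1, the band 3 anion exchanger, had 398 and 360 scaled FPKM in Ob against 265 and 410 in Ob + Exe. Epb41, the membrane skeleton protein 4.1, had 223 and 228 in Ob against 182 and 260 in Ob + Exe. Both were lowest in the first and highest in the second Ob + Exe library. Aqp1, the water channel of red cells, had 227 and 180.1 in Ob against 113 and 217 in Ob + Exe, lowest in the first Ob + Exe library. Of 15 genes of late erythroid maturation, 6 were lower and 9 higher, and none was called (median 0.07). Car2, carbonic anhydrase II, had 1198 and 1413 scaled FPKM in Ob against 1523 and 1456 in Ob + Exe, and Prdx2, the main peroxiredoxin of red cells, had 693 and 874 in Ob against 1018 and 876 in Ob + Exe. Ube2l6, a conjugating enzyme of the ISG15 pathway, had 606 and 769 in Ob against 683 and 835 in Ob + Exe.

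Of 9 genes that bind or clear hemoglobin and heme, 5 were lower and 4 higher in Ob + Exe, and none was called (median log2 fold change -0.09). Hp, haptoglobin, which binds free hemoglobin, had 304 and 205 scaled FPKM in Ob against 388 and 441 in Ob + Exe, higher in both Ob + Exe libraries (log2 fold change 0.73, SE 0.271, limma unadjusted p = 0.0373, adjusted p = 0.960). Hmox1, which breaks down heme, had 118 and 137 in Ob against 189 and 151 in Ob + Exe, and Slc40a1, the iron exporter ferroportin, had 64.2 and 54.4 in Ob against 53.7 and 77.7 in Ob + Exe. Of 10 other globin genes found, 4 passed the filter, 1 was lower and 3 higher, and none was called (median 1.12). Beside Hbq1b these were Cygb, cytoglobin, with values from 0.644 to 1.06 scaled FPKM, Mb, myoglobin, with 0.483 and 0 in Ob against 1.14 and 0.734 in Ob + Exe, and Hbb-bh0, listed at 0 except for 2.63 scaled FPKM in the second Ob + Exe library. With 4 genes, the median lies midway between Cygb and Mb.

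**Figure D5:**
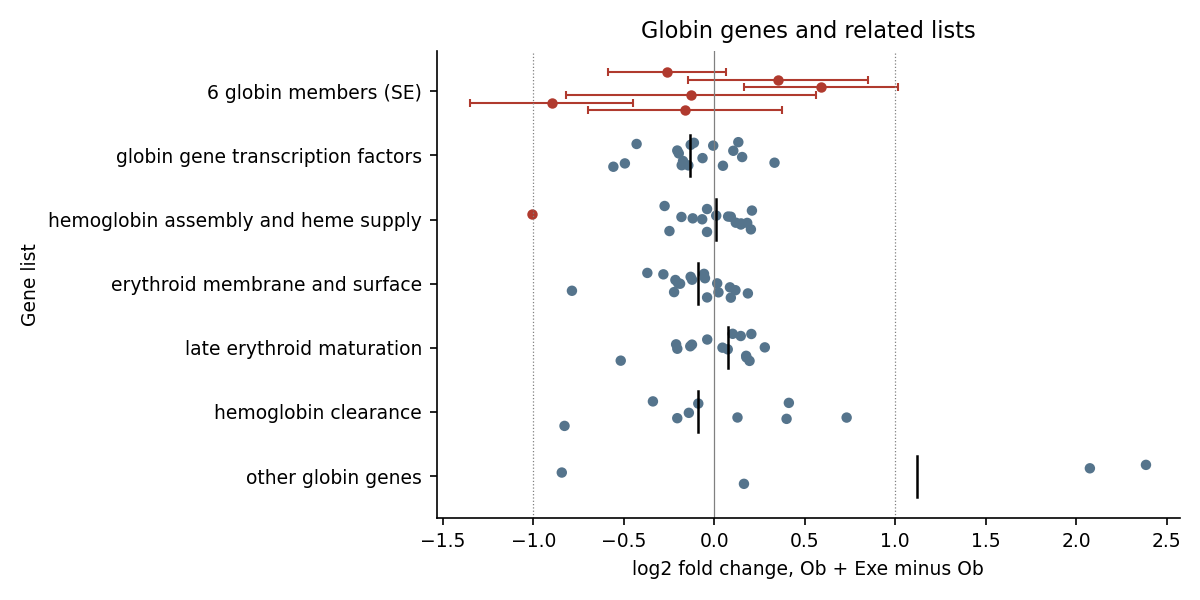
log2 fold change (Ob + Exe minus Ob) of the 6 globin members with their SE from limma, and of the genes of the 6 related lists, with a bar at each list's median and dotted lines at the limits of -1 and 1. The members are in red, as is the called gene of the lists, Steap3, and the members lie between -0.90 and 0.59.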

How the data were processed

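RNA-seq of tibial bone marrow was examined in 2 Ob and 2 Ob + Exe libraries, grouped by their titles. The authors made poly-A libraries, cleaned the reads with fastp, removed rRNA reads, aligned to GRCm38 with HISAT2 and ran StringTie on GENCODE vM25 transcripts. What the authors deposited is, per transcript and library, the coverage (mean read depth, not normalized) and the FPKM. Strand was not stated.

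Here transcript FPKM were summed per gene, genes were kept where the mean FPKM reached 0.1, and libraries were scaled by median-of-ratios factors. log2(scaled FPKM + 0.1) went into limma 3.58.1 (R 4.3.3; lmFit and a trended eBayes on 2 residual degrees of freedom), with Benjamini-Hochberg adjustment over all genes. This scale understates the fold changes of low genes. The limits for a call follow the authors, whose DESeq2 needs counts. Sums, ratios and shares were compared with two-sided exact permutation tests. The fit was tested on simulated data. Each library was taken as 1 mouse. Where this does not hold, p-values measure only the spread between these samples. With 2 libraries per group, their number limits the precision.

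The members and the lists were chosen with earlier results of these data known. From each list, every called gene is named or, where none was called, the 3 with the highest mean scaled FPKM. Ldb1, Alas2 and Mb were named after their values were seen. The alternatives were other filters, pseudocounts and scalings, limma voom, no trend, a replicate block and leaving out each library. The crossed block and the summed copies were added after seeing the data. Ahsp was not analysed here, and another listed gene is not reported here.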

Additional observations from a re-analysis of the deposited data

How the results depend on the processing

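No member was called in any of the 16 alternatives in which it was tested, which for Hbb-bh1 and Hba-x was the one with no filter on low values, and the direction of the 6 members tested was kept wherever they were fitted, except for Hbb-bs, which ran from -0.78 to 0.52 when each library was left out, reversing without the first Ob + Exe library. The log2 difference of summed adult globin ran from -0.43 to 0.15 when each library was left out in turn, reversing without the first Ob + Exe library, as did that of the globin share of FPKM, from -0.39 to 0.0045. The log2 alpha to beta ratio ran from -1.03 to 0.27, reversing without the second Ob + Exe library. All 3 kept their direction in read equivalents, and summed adult globin also under the other scalings tried.

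Over all genes, 690 calls became 267 with a minimum mean FPKM of 1 (fewer genes tested), 224 with a pseudocount of 1 and 1061 with no intensity trend, and between 601 and 1853 when each library was left out, 1853 without the second Ob + Exe library. Of the genes in the 6 lists, 1 was called, Steap3. The number was 0 with a pseudocount of 1, in limma voom and with no intensity trend. Leaving out each library gave 0 to 3. These were Hp and Mb without the first Ob library, Hbb-bh0 without the first Ob + Exe library, and Hbq1b, Sptb and Steap3 without the second. The causes were not tested.

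Whether the numbers 1 and 2 pair the mice is not stated in the sources used here. Over 18596 genes, the differences between replicates 1 and 2 of the groups had a correlation of -0.106. It was -0.235 over the 12409 genes averaging 1 FPKM or more. Such a correlation does not show how the mice were handled, so it cannot decide whether they were paired. With a replicate block, 776 genes were called, 28 had an adjusted p under 0.05 in limma (0 without the block) and, in the lists, 2 were called (Steap3 and Mb). With the crossed pairing these counts were 782, 6 and 1. Only 2 mice per group were measured, and among the members read depth limits Hbb-bh1 and Hba-x.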

Other observations

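Beyond the comparison of groups, values were set side by side between the 2 mice of each group, with no test. Of 18 genes of the erythroid membrane list, 16 were higher in the second Ob + Exe library than in the first, with a median log2 difference of 0.37, beside 9036 of 18596 genes tested and a median of 0.00. Some other lists also stood higher in that library, with 11 of 15 late maturation genes (median 0.26), 11 of 17 heme supply genes (0.22), 7 of 10 neutrophil markers (0.27) and 7 of 10 stromal markers (0.53). Other lists did not, with 9 of 18 transcription factors higher (median 0.03), 2 of 5 adipocyte markers (-0.28) and 2 of 8 B cell markers (-0.46). Only 2 of 7 T and natural killer cell markers (-0.68) and 1 of 7 megakaryocyte and platelet markers (-1.49) were higher there. The same difference was 1.30 for Hbb-bs and 0.66 for Hbb-bt, but -0.19 for Hba-a1 and 0.03 for Hba-a2. Between the 2 Ob mice, 14 of the 18 membrane genes were higher in replicate 2 (median 0.10), beside 9256 of 18596 genes tested (0.00). So were 14 of 17 heme supply genes (0.18), 8 of 15 late maturation genes (0.06) and 10 of 18 transcription factors (0.01). Among the markers, 7 of 10 stromal (0.17), 4 of 5 adipocyte (0.54) and 4 of 7 megakaryocyte and platelet markers (0.03) were higher. Only 3 of 8 B cell (-0.10), 0 of 10 neutrophil (-0.81) and 0 of 7 T and natural killer cell markers (-1.12) were. The difference was -0.25 for Hbb-bs, -0.13 for Hbb-bt, 0.04 for Hba-a1 and 0.61 for Hba-a2.

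Among markers of other marrow cells, 2 of 8 B cell markers, Cd79a and Igll1, and 2 of 7 megakaryocyte and platelet markers, Gp1bb and Gp1ba, were called lower in Ob + Exe in limma, beside 508 of all 18596 genes tested. Their lowest adjusted p was 0.943. The B cell markers summed to 200 and 209 scaled FPKM in Ob against 161 and 125.2 in Ob + Exe, and did not overlap. The megakaryocyte and platelet markers summed to 466 and 342 in Ob against 378 and 139 in Ob + Exe, and overlapped. No marker of neutrophils, monocytes and macrophages, T and natural killer cells or adipocytes was called, and 1 of 10 stromal markers, Col1a1, was called lower.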
